A study of Mus musculus with 3 samples.

Results

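The genes described here were 9 genes of cholesteryl ester storage and lipid droplets, *Soat1*, *Soat2*, *Lipe*, *Nceh1*, *Plin1*, *Plin2*, *Plin3*, *Plin4* and *Plin5*, out of 21951 protein-coding genes annotated on mm10. They were chosen by name for their role, with earlier results of these data known. A peak was assigned to a gene when it overlapped the annotated body or lay within 50 kb of either end.

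The peaks came from chromatin immunoprecipitation sequencing of Ad4BP/SF-1, the nuclear receptor encoded by *Nr5a1* that drives steroidogenic gene expression, in cultured Leydig cells, the testosterone-producing cells of the testis. The cells were prepared on a Percoll density gradient from the testes of several male ICR mice aged 9 weeks, and they received vehicle or cAMP, the second messenger through which luteinizing hormone acts. There was 1 library per condition, so no replicate error could be had for any difference between vehicle and cAMP, and neither the dose nor the duration of cAMP was given in the sources used here. The vehicle list held 5721 peaks and the cAMP list 4025 peaks, each with a MACS score that rises with the strength of the peak's p-value and with sequencing depth, and the depth of the libraries is unknown.

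Scores started at 50 in both lists, which is stricter than the threshold in the published methods, so a region without a listed peak may have been called and removed and was not shown to be unbound. The peak lists cannot test the cell type or the purity of the preparation. Of 6 genes known for Leydig cells 3, *Star*, *Cyp11a1* and *Cyp17a1*, had a vehicle peak within 50 kb, 50% beside 36.7% of all protein-coding genes, and 2, *Star* and *Cyp11a1*, had a cAMP peak, 33.3% beside 28.8%. *Hsd3b6*, *Lhcgr* and *Insl3* had none in either list.

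Steroidogenic cells keep cholesterol, the precursor of all steroid hormones, as cholesteryl esters in cytoplasmic lipid droplets. Sterol O-acyltransferases esterify cholesterol at the endoplasmic reticulum, neutral cholesteryl ester hydrolases release it again when hormone synthesis is stimulated, and perilipins coat the droplet and control the access of lipases. In the classical pathway cAMP activates protein kinase A, which phosphorylates hormone-sensitive lipase and perilipin 1. Ad4BP/SF-1 binds DNA as a monomer at an extended half-site, which was searched for here on both strands as TCAAGGTC, TCAAGGCC, CCAAGGTC or CCAAGGCC.

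Sequences from the peaks are shown first, so that the consensus copies of the different genes can be compared. Of 12 distinct copies 10 are shown, all 8 in repeat-masked sequence and 2 of the 4 outside it. Each run holds a consensus copy found in a peak, in capitals, with 40 bases on either side, read 5′ to 3′ on the strand of the copy from the mm10 genome.
Soat1, intron 2, cAMP peak, chr1:156460408-156460495, plus strand: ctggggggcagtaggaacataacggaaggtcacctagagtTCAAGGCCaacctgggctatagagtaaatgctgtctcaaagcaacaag
Soat2, upstream in Spryd3 intron 6, vehicle peak, chr15:102126065-102126152, plus strand: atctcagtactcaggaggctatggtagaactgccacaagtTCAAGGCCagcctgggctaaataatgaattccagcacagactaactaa
Lipe, downstream, vehicle and cAMP peaks, chr7:25345832-25345919, plus strand: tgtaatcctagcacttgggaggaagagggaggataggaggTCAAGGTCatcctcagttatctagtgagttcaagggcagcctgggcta
Nceh1, upstream near Ect2, vehicle peak, chr3:27155424-27155511, plus strand: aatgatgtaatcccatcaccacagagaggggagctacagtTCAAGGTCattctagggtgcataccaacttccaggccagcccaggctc
Nceh1, intron 3, vehicle and cAMP peaks, chr3:27233495-27233582, minus strand: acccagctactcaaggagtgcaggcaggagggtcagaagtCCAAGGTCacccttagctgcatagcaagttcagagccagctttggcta
Plin1, intron 2, vehicle peak, chr7:79730164-79730251, minus strand: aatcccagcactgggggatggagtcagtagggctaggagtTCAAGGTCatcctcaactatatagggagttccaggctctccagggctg
Plin4 and Plin5, in Plin5 intron 6, vehicle peak, chr17:56114252-56114339, minus strand: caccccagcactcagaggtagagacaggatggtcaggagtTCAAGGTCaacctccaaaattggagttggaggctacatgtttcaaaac
Plin4 and Plin5, in the peak over Plin5 exon 4, vehicle peak, chr17:56116372-56116459, minus strand: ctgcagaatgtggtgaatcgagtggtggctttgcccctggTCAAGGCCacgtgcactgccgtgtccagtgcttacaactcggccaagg
Plin4 and Plin5, in Plin4 intron 4, cAMP peak, chr17:56108100-56108187, plus strand: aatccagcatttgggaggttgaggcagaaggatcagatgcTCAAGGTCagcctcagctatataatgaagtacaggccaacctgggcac
Plin4 and Plin5, second copy in Plin4 intron 4, cAMP peak, chr17:56108185-56108272, plus strand: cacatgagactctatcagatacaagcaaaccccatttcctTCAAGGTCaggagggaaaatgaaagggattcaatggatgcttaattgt

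Of the 9 genes, 8 had an Ad4BP/SF-1 peak in at least 1 list within 50 kb, and *Plin3* had none. In the vehicle list 7 genes had a peak, *Soat2*, *Lipe*, *Nceh1*, *Plin1*, *Plin2*, *Plin4* and *Plin5*, which is 77.8% of the 9 beside 36.7% of all protein-coding genes. In the cAMP list 6 genes had a peak, *Soat1*, *Soat2*, *Lipe*, *Nceh1*, *Plin4* and *Plin5*, which is 66.7% beside 28.8%. Both lists held a peak for 5 genes, 55.6% beside 22.5%, whether or not at the same position, and at least 1 list did so for 88.9% beside 43.1%. Thus *Plin1* and *Plin2* had a peak in the vehicle list alone and *Soat1* in the cAMP list alone, as the map of peaks around the 9 genes shows.

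**Figure D1:**
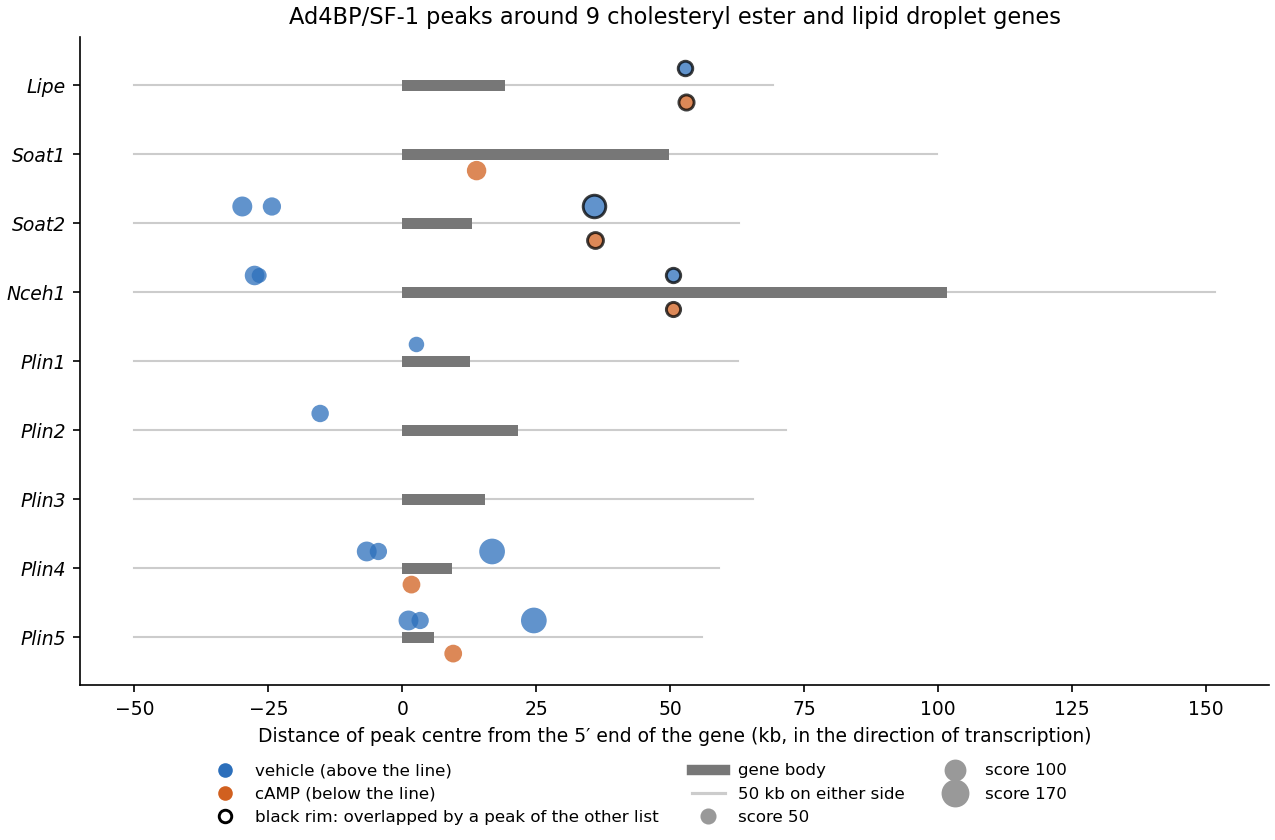
Each line is the window of 1 gene, with the distance of the peak centre from the 5′ end of the gene in kb along the x axis, the gene body as a dark bar, vehicle peaks above and cAMP peaks below the line, circle area by MACS score and a black rim where a peak of the other list overlaps. Rims appear at *Lipe*, *Soat2* and *Nceh1*, *Plin3* has no peak, and *Plin4* and *Plin5* show the same 3 vehicle peaks and 1 cAMP peak from 2 viewpoints.

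These counts rested on 12 distinct vehicle peaks and 5 distinct cAMP peaks. *Plin4* and *Plin5* lie side by side on chromosome 17 and shared all of their peaks, 3 under vehicle and 1 under cAMP, so they are not independent members. Joined, the windows of the 9 genes formed 8 separate stretches of 1.05 Mb in all. They held 11.4 vehicle peaks and 4.76 cAMP peaks per Mb, beside 3.07 and 2.09 per Mb in the joined windows of all protein-coding genes. The gene bodies had a median length of 15.4 kb, and that of all protein-coding genes was 17.4 kb. At least 3 vehicle peaks were assigned to *Soat2*, *Nceh1*, *Plin4* and *Plin5*, a number that 6.05% of all protein-coding genes reached.

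Most of the vehicle peaks lay outside the genes they were assigned to. Of the 12 vehicle peaks 4 were inside the body of a member, 5 were inside another protein-coding gene and 3 were outside any gene. Of the 5 cAMP peaks, 3 were inside the body of a member and 2 inside another gene. For 5 of the 12 vehicle peaks and for 3 of the 5 under cAMP, the nearest protein-coding start site was that of a member. No share over all assigned peaks stands beside these position counts. Of all protein-coding genes 12.6% had a vehicle peak in the body and 36.7% within 50 kb, so distant peaks were common everywhere. Each window held between 1 and 7 other protein-coding genes, so no window belonged to its member alone.

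When only the gene body counted, 3 genes had a vehicle peak, *Nceh1*, *Plin1* and *Plin5*, beside 12.6% of all protein-coding genes, and 3 a cAMP peak, *Soat1*, *Nceh1* and *Plin4*, beside 9.15%. *Nceh1* alone had both, 1 of 9 genes beside 6.42%, and 5 genes had either, beside 15.4%. Within 10 kb the counts were 4 genes in the vehicle list beside 19.3%, 4 in the cAMP list beside 13.9%, 3 in both beside 10.1% and 5 in either beside 23.1%. *Soat2*, *Lipe* and *Plin2* had peaks at a distance only, the nearest between 15.0 and 33.5 kb from the gene body. At every distance in the plot of genes with a peak by distance allowed, the share of the 9 genes stood above the share of all genes.

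**Figure D2:**
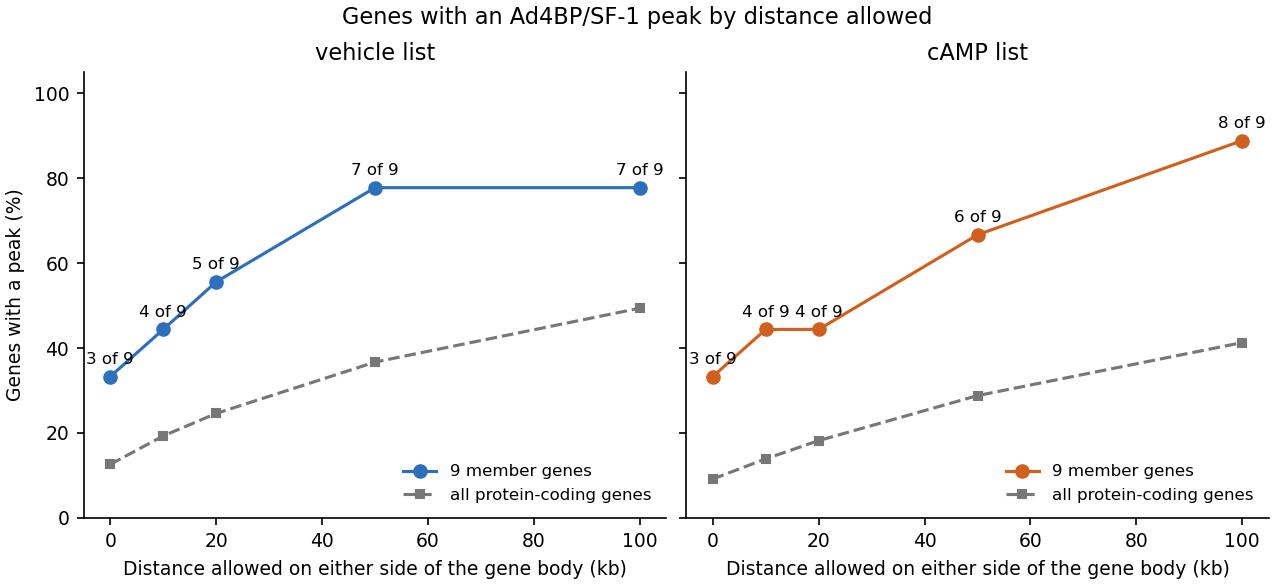
The share of genes with a peak in percent is plotted against the distance allowed on either side of the gene body in kb, with the vehicle list on the left and the cAMP list on the right, the 9 genes as circles with their counts and all 21951 protein-coding genes as squares. The count rises from 3 of 9 in the gene body to 7 of 9 at 50 kb in the vehicle list, and from 3 of 9 to 6 of 9 in the cAMP list.

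The 2 genes of cholesterol esterification differed in where and in which list peaks were called. *Soat1* encodes the acyltransferase found in most cell types, the adrenal gland and testis included. *Soat1* (chr1:156424525-156474331, minus strand) had no vehicle peak, the nearest being 363.1 kb from the gene. Its single cAMP peak, at chr1:156460217-156460696 in intron 2 of 16 exons, had a score of 96.75, ranked 1001 in its list and stood above 75.1% of it. This was the highest score of any cAMP peak around the 9 genes. The peak lay 6.35 kb from the nearest start site of *Soat1*, and its only consensus copy, TCAAGGCC, lay 5 bp from the peak centre. Among cAMP peaks of neighbouring rank, 250 on either side, 72.9% were overlapped by a vehicle peak, whereas this one was not.

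*Soat2* encodes the acyltransferase best known from liver and intestine. *Soat2* (chr15:102150526-102163469, plus strand) had 3 vehicle peaks and 1 cAMP peak, none of them in the gene. The highest vehicle peak, at chr15:102186054-102186712, scored 130.47, ranked 872 and lay 22.6 kb beyond the 3′ end of *Soat2* in intron 7 of *Csad*, the gene of cysteine sulfinic acid decarboxylase in taurine synthesis. The nearest start site was that of *Csad*, at 2.59 kb. The cAMP peak, at chr15:102186216-102186646, scored 64.46, ranked 2241 and lay wholly within the vehicle peak. The score under cAMP was thus 0.494 times that under vehicle, lower than in most overlapping pairs of the lists.

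The other vehicle peaks of *Soat2* lay upstream, both in intron 6 of *Spryd3*, whose start site was the nearest. They scored 102.03 at chr15:102120341-102121008 and 85.52 at chr15:102125980-102126415, and ranked 1459 and 2046. Their centres were 29.9 and 24.3 kb upstream of the *Soat2* start. The nearest cAMP peak was 65.2 and 59.8 kb away. Of the pair, only the peak at 24.3 kb held a consensus copy.

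The hydrolases, which free cholesterol from its esters, both had a region called in both lists, and in both cases with low scores. *Lipe* encodes hormone-sensitive lipase, a neutral cholesteryl ester hydrolase of adrenal gland and testis as well as the lipase of adipose tissue. *Lipe* (chr7:25379527-25398710, minus strand) had a vehicle peak at chr7:25345748-25346176 with a score of 53.95 and a cAMP peak at chr7:25345547-25346064 with a score of 58.53. They ranked 4991 and 2754, and stood above 12.6% and 31.3% of their lists. Both lay 33.4 and 33.5 kb beyond the 3′ end of *Lipe*, and the nearest start site was that of *Cnfn*, the gene of the epidermal protein cornifelin, at 23.7 and 23.9 kb. They shared 317 bp and the same consensus copy, TCAAGGTC.

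*Nceh1* encodes neutral cholesteryl ester hydrolase 1, a membrane enzyme of the endoplasmic reticulum. *Nceh1* (chr3:27182965-27284608, plus strand) was the only one of the 9 genes with a peak of both lists in its body. In intron 3 of 5 exons, 50.6 kb from its 5′ end, the vehicle peak at chr3:27233284-27233866 scored 52.98 and the cAMP peak at chr3:27233272-27233800 scored 51.76. Both were near the end of their lists, at ranks 5153 and 3681. The shared copy, CCAAGGTC, lay 37 bp from the vehicle centre and 2 bp from the cAMP centre.

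A pair of further vehicle peaks lay upstream of *Nceh1* outside any gene. They scored 98.33 at chr3:27155024-27155780 and 57.4 at chr3:27156039-27156487, at ranks 1570 and 4463. The nearest start site, 1.52 and 2.38 kb away, was that of *Ect2*, a gene of cell division, while the *Nceh1* start was 27.6 and 26.7 kb away. The higher peak held a consensus copy and the lower did not.

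The perilipins had 5 distinct vehicle peaks and 1 cAMP peak. None of them had a counterpart, beside 37.9% of all vehicle peaks and 53.8% of all cAMP peaks that had one. *Plin1* encodes the perilipin of adipocytes and steroidogenic cells through which protein kinase A controls lipolysis. *Plin1* (chr7:79720218-79732903, minus strand) had 1 vehicle peak, at chr7:79730022-79730485 in intron 2 of 9 exons, with a score of 61.53 and rank 3921. Its centre was 2.65 kb from the 5′ end of the gene and 0.388 kb upstream of an internal start site, and it held 1 copy of TCAAGGTC. The nearest cAMP peak lay 55.6 kb from the gene, with a score of 51.08.

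*Plin2* encodes adipophilin, which coats droplets in most cell types. *Plin2* (chr4:86648386-86670060, minus strand) had 1 vehicle peak, at chr4:86685053-86685714 outside any gene, with a score of 77.89 and rank 2497. It lay 15.3 kb upstream of the *Plin2* start, which was the nearest start site, and it held no consensus copy. The nearest cAMP peak was 86.8 kb from the gene and therefore outside the window, although it scored 224.73 at rank 106.

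*Plin3* encodes a perilipin that moves from the cytosol to new droplets. *Plin3* (chr17:56277476-56292873, minus strand) was the only one of the 9 genes with no peak in either list, and the nearest peaks were 160.7 kb away in the vehicle list and 169.1 kb in the cAMP list. Both of these are peaks of the neighbouring *Plin4* and *Plin5*.

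*Plin4* encodes a perilipin abundant in adipocytes and muscle, and *Plin5* encodes one of oxidative tissues that places droplets beside mitochondria. *Plin4* (chr17:56100591-56109803, minus strand) and *Plin5* (chr17:56111601-56117596, minus strand) shared 3 vehicle peaks. The highest of any peak around the 9 genes, at chr17:56092705-56093366, scored 169.31, ranked 473 and stood above 91.7% of the list. It lay in intron 3 of *Hdgfl2*, the gene of a histone-binding protein, 7.2 kb beyond the 3′ end of *Plin4* and 13.3 kb from the nearest start site, that of *Hdgfl2*, with TCAAGGCC 5 bp from its centre. Among vehicle peaks of neighbouring rank 76.2% were overlapped by a cAMP peak, whereas this one was not, and the nearest cAMP peak was 14.4 kb away.

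The other vehicle peaks of *Plin4* and *Plin5* lay in the body of *Plin5*. The peak over exon 4 of 9, at chr17:56116083-56116778, scored 100.87 at rank 1491, lay 0.868 kb from a *Plin5* start site and held TCAAGGCC and CCAAGGTC. The peak in intron 6, at chr17:56113986-56114526, scored 76.73 at rank 2563 and held TCAAGGTC. Under cAMP the call was at another position, intron 4 of *Plin4*, at chr17:56107815-56108349, with a score of 80.87 at rank 1410. It lay 1.72 kb from the *Plin4* start and held TCAAGGTC at 2 positions. The gap between this peak and the nearest vehicle peak was 5.6 kb, and 62.9% of the cAMP peaks of neighbouring rank had a counterpart.

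Whether a peak around these genes was called under both conditions was then set against its score. Overlap by at least 1 bp was found for 3 of the 12 vehicle peaks, 25% with an exact 95% interval of 5.49 to 57.2%, beside 37.9% of the whole vehicle list. In the cAMP list 3 of 5 peaks had a counterpart, 60% with an interval of 14.7 to 94.7%, beside 53.8% of the list. Both intervals cover counting error only, and each contained the share of its list. Apart from the peak at rank 473, the vehicle peaks without a counterpart had rank neighbours of which 19.4 to 47.7% had one. Lacking a counterpart was thus usual at those ranks.

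In the lists as a whole, peaks with a counterpart had the higher scores. The median was 96.6 with and 65.0 without one in the vehicle list, and 84.1 and 58.7 in the cAMP list. Around the 9 genes the medians stood the other way round. They were 54.0 for the 3 vehicle peaks with a counterpart and 85.5 for the 9 without, and 58.5 for the 3 cAMP peaks with a counterpart and 88.8 for the 2 without. These medians rest on 2 to 9 peaks, and the shared region of *Soat2* did not follow them, since its vehicle score of 130.47 was the second highest around the 9 genes. The shared regions of *Lipe* and *Nceh1* had low scores, while the strongest region at *Plin4* and *Plin5* and the peak in *Soat1* were listed once.

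**Figure D3:**
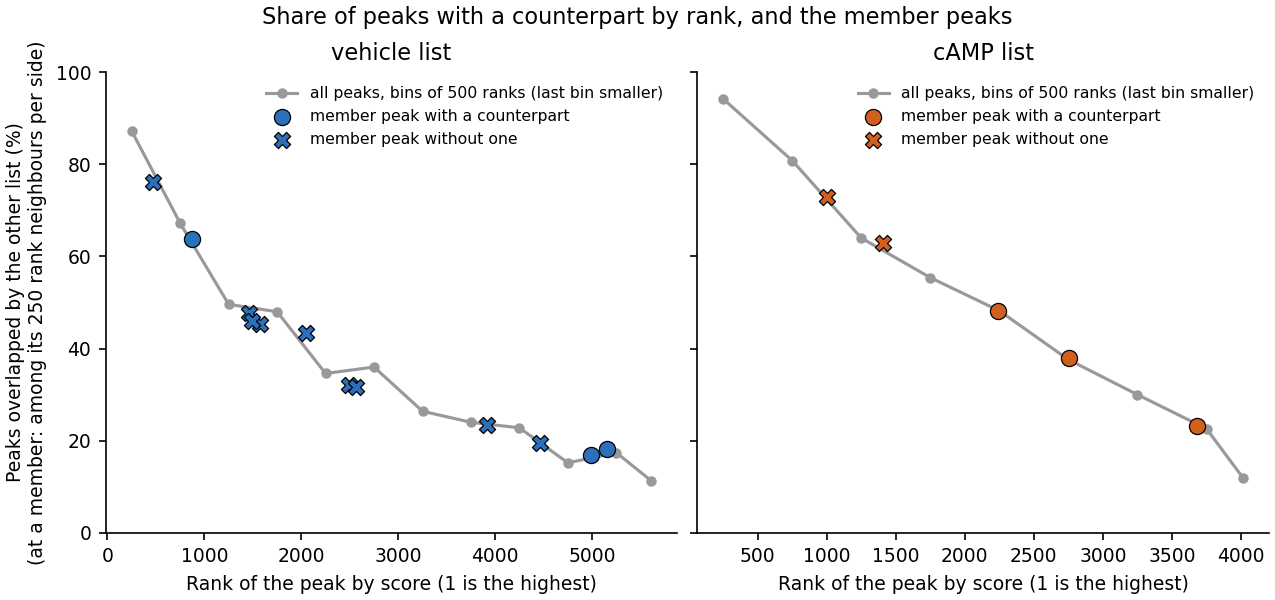
The share of peaks overlapped by the other list, in percent, is plotted against the rank by score for bins of 500 peaks (grey), with each peak of the 9 genes placed at the share among its rank neighbours and drawn as a circle where it has a counterpart and a cross where it has none. The share falls from 87.2% in the first 500 vehicle peaks, and the crosses at ranks 473 and 1001 are the peaks at *Plin4* and *Plin5* in the vehicle list and at *Soat1* in the cAMP list.

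The scores of the 3 shared regions were compared with those of all 2171 overlapping pairs, in which the cAMP score was a median of 0.880 times the vehicle score. From the 5th to the 95th percentile this ratio ran from 0.382 to 1.89. The ratio was 0.494 at *Soat2*, above 13.0% of the pairs, 0.977 at *Nceh1*, above 59.2%, and 1.08 at *Lipe*, above 67.9%. All 3 ratios lay between these percentiles.

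**Figure D4:**
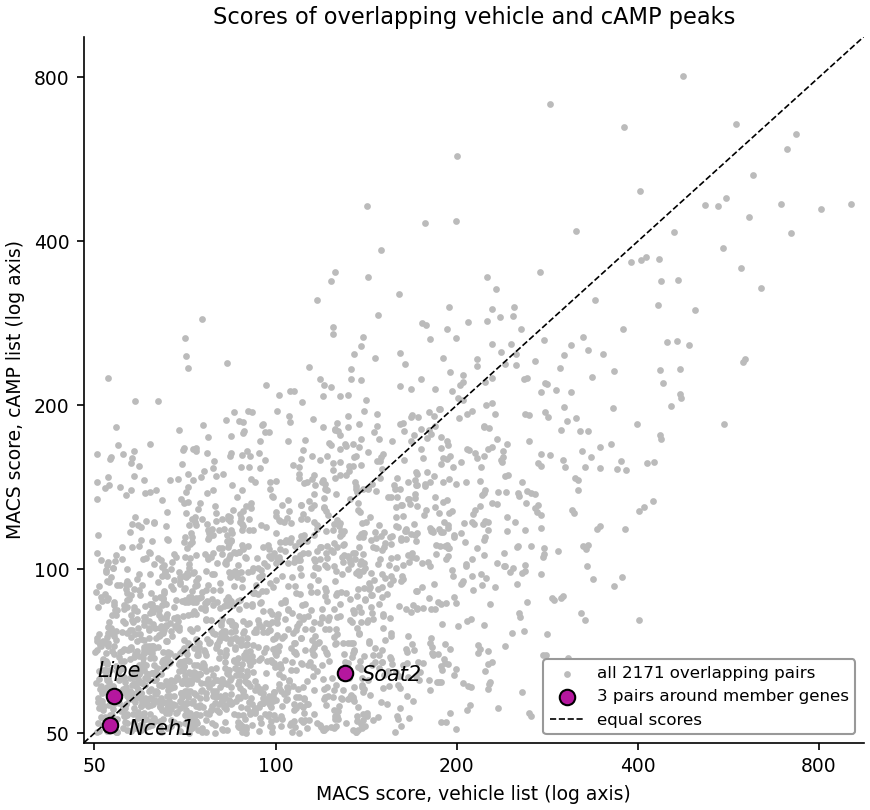
Each point is an overlapping pair of peaks, with its MACS score in the vehicle list on the x axis and in the cAMP list on the y axis, both logarithmic, and the dashed line marks equal scores. Among the 2171 pairs, *Lipe* and *Nceh1* sit in the lower left corner near the line and *Soat2*, at 130.47 and 64.46, well below it.

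All peaks around the 9 genes with a score of at least 100 were in the vehicle list, but scores also rise with depth, which is unknown. A score of at least 100 was reached by 4 of the 12 vehicle peaks, 33.3% beside 26.6% of the list, and by 0 of the 5 cAMP peaks beside 23.0%. These were the vehicle peaks of *Soat2* at 130.47 and 102.03 and of *Plin4* and *Plin5* at 169.31 and 100.87. By place in its own list, the *Soat1* cAMP peak of 96.75 stood above 75.1%. The vehicle peaks at 102.03 and 100.87 stood above 74.5% and 73.9%, those at 169.31 and 130.47 above 91.7% and 84.8%. Within 1 kb of a protein-coding start site lay 2 of the 12 vehicle peaks, those of *Plin1* and of *Plin5* exon 4, which is 16.7% beside 10.7%, and 0 of the 5 cAMP peaks beside 8.70%.

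The consensus was present in 8 of the 12 vehicle peaks, 66.7% with an interval of 34.9 to 90.1%, beside 80.4% of the vehicle list. It was present in 4 of the 5 cAMP peaks, 80.0% with an interval of 28.4 to 99.5%, beside 77.1%. Of 500-bp tiles of the chromosomes that carry the 9 genes, 8.61% held it. The last 7 letters alone, CAAGGTC or CAAGGCC, gave the same shares of the peaks of the 9 genes, and 13.8% of the tiles.

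The peaks without the consensus all lay more than 10 kb from the gene they were assigned to. All 5 vehicle peaks and all 3 cAMP peaks within 10 kb of a gene body held a copy, at *Soat1*, *Nceh1*, *Plin1*, *Plin4* and *Plin5*, beside 82.9% and 82.3% of all peaks within 10 kb of a protein-coding gene. Farther out it was found in 3 of 7 vehicle peaks, 42.9% beside 75.9%, and in 1 of 2 cAMP peaks beside 72.8%. The 4 vehicle peaks without a copy were the farthest upstream and the downstream peak of *Soat2*, the weaker upstream peak of *Nceh1* and the peak of *Plin2*.

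Sequences with 1 mismatch to the consensus were listed in the peaks without it, after it had been found absent. The *Plin2* peak held CCAAGCTC 9 bp and TCAAGGAC 32 bp from its centre. The peak that *Soat2* shared between the lists held TGAAGGTC, TCAGGGCC, TCAAGGCT and CCAAGTCC, 5, 15, 22 and 50 bp from the vehicle centre. The farthest upstream peak of *Soat2* held TCAAGGGC at 10 bp, TCATGGCC at 69 and 200 bp and CCCAGGCC at 278 bp, and the weaker upstream peak of *Nceh1* held TCAAGGTT at 83 bp. Such near matches are common, since 71.0% of the 500-bp tiles of chromosome 4 held a sequence with at most 1 mismatch.

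The member peaks held 12 distinct copies of the consensus. Of these 6 read TCAAGGTC, 4 read TCAAGGCC, 2 read CCAAGGTC and 0 read CCAAGGCC. In all vehicle peaks these letters made up 42.6%, 27.8%, 17.5% and 12.1% of 6017 copies, so the order was the same around the 9 genes.

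After the sequences had been seen, the copies were compared with the repeat masking of the genome, in which repeated sequence is in lower case. Of the 12 distinct copies 8 were in masked sequence, 66.7%, beside 36.1% of the 6017 copies in all vehicle peaks, 40.9% of the 4049 in all cAMP peaks and 36.7% of those on the chromosomes of the 9 genes. The masked copies were all those of *Soat1*, *Soat2*, *Lipe*, *Nceh1* and *Plin1*, the copy in *Plin5* intron 6 and the first copy in *Plin4* intron 4. Unmasked were the copy in *Hdgfl2* intron 3, both copies of the peak over *Plin5* exon 4 and the second copy in *Plin4* intron 4.

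The flanks of masked copies were more alike at the median, with overlapping ranges. Over the 80 bases beside the consensus, the 28 pairs of masked copies had the same base at a median of 43.1% of positions, with a range of 18.8 to 62.5%. The 38 pairs with at least 1 unmasked copy had a median of 26.9% and a range of 18.8 to 38.8%. All pairs came from the same 12 copies, each used many times, so they are not independent. The 4 unmasked copies all lay around *Plin4* and *Plin5*, so masking and locus cannot be told apart here. The most similar pair was *Plin1* intron 2 and the first copy of *Plin4* intron 4, at 62.5%. Only uniquely mapped reads had been kept for these lists, so reads that fit several copies of a repeat did not count in them, and no repeat class was assigned here.

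No peak was called over the promoter windows that could be matched. These windows from RefSeq, 250 bases before to 50 after a start on GRCm38.p6, were found for 8 of the genes, in 10 windows, and 0 of them overlapped a peak of either list. Such overlap was rare everywhere, with vehicle peaks over 1.14% of all 32851 RefSeq windows, cAMP peaks over 0.517% and any peak over 1.27%. The consensus was found in 1 of the windows of *Lipe* and in that of *Plin3*, the gene without a peak. Of all RefSeq windows 5.73% held it.

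Other genes of cholesteryl ester and lipid droplet metabolism were looked at in the same way, from a list of 22 that included *Lipa*, *Pnpla2*, *Dgat1*, *Dgat2*, the *Cide* genes, *Bscl2* and *Stard3*. Within 50 kb 7 of the 22 had a vehicle peak, 31.8%, and 4 a cAMP peak, 18.2%, beside 36.7% and 28.8% of all protein-coding genes. Both lists held a peak for 3, 13.6% beside 22.5%, and either for 8, 36.4% beside 43.1%. Within 10 kb there were 6 of the 22 in the vehicle list, 27.3% beside 19.3%, and 3 in the cAMP list, 13.6% beside 13.9%. In the gene body there were 4, 18.2% beside 12.6%, and 1, 4.55% beside 9.15%. Within 10 kb *Fitm1* and *Mgll* had peaks in both lists, 9.09% of the 22 beside 10.1%. *Fitm1*, which encodes a protein of the endoplasmic reticulum that promotes droplet formation, had a shared peak 7.81 kb upstream with scores of 66.96 under vehicle and 51.55 under cAMP, and a further cAMP peak of 74.41. *Mgll*, which encodes monoglyceride lipase, had a shared peak in its body, 98.5 kb from its 5′ end, with scores of 61.1 under vehicle and 71.76 under cAMP and with the consensus at 2 positions.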

How the data were processed

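Ad4BP/SF-1 ChIP-seq peaks of 1 vehicle and 1 cAMP library of mouse Leydig cells were analysed; the input DNA sample was not analysed here. The authors mapped reads to mm10 with Bowtie (0.12.8 in the submitters' processing notes, another version in the published methods), kept uniquely mapped reads and called peaks with MACS and its `--nomodel` option. The control used for calling was not given in the sources used here. The deposited BED files hold a score per peak, in MACS 10 times the negative log10 of the p-value, and no read numbers, so the depth, which limits the precision, is unknown.

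Peaks were assigned to GENCODE M21 genes on mm10 with coordinates counted from 1, and sequences and their masking were read from the GRCm38.p6 RefSeq genome, with Python 3.11.15, numpy 2.4.6, pandas 2.3.3, pysam 0.24.0 and samtools 1.23.1. Distances run from peak centres to start sites and from peak edges to gene bodies. Intervals are exact Clopper-Pearson intervals (95%, scipy 1.17.1) and plots used matplotlib 3.10.9. The functions were tested on simulated data. With 1 library per condition no test was made, and counts stand beside the same counts over all genes or peaks.

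The members and lists were chosen with earlier results of these data known. Named genes were the 9 members, those of the 22 further droplet genes called under both conditions at 10 kb or less, and the protein-coding gene whose start site was nearest to each member peak; other genes are named for position or as a check. Masking, flank identity and near matches were chosen after the sequences had been seen. Alternatives were other windows, start sites only, higher scores, equal list lengths, the nearest start site, overlap rules and consensus definitions. Some sequences and gene names that these rules cover are not reported here.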

Additional observations from a re-analysis of the deposited data

How the results depend on the processing

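The counts of genes with a peak depended on the distance allowed. Within 50 kb 7 genes had a vehicle peak, 6 a cAMP peak, 5 both and 8 either. The gene body alone gave 3, 3, 1 and 5 in that order, and 10 kb gave 4 with a vehicle peak, 3 with both and 5 with either. At 20 kb 3 genes had peaks in both lists, beside 13.5% of all protein-coding genes. Counting a peak only for the nearest start site gave 4 with a vehicle peak, 3 with a cAMP peak and 1 with both, beside 18.2%, 14.2% and 9.75%. With fewer peaks, at a score of at least 100, the counts were 3, 0, 0 and 3, beside 14.6%, 9.12%, 6.69% and 17.0%, and a score of at least 75 left 3 genes with a cAMP peak and 2 with both, beside 14.6% and 11.1%. At a score of at least 75 in both lists, the share of member peaks with a counterpart was 0% of 8 vehicle peaks, beside 37.3% of all, and 0% of 2 cAMP peaks, beside 61.4%. At 100 it was 0% of 4 vehicle peaks, beside 38.6%. The consensus share at 75 was 100% of the 2 cAMP peaks, beside 89.8%, and within 10 kb it was 100% of 5 vehicle and 3 cAMP peaks, beside 82.9% and 82.3%. Beyond the loss of genes and peaks that narrower windows and higher scores bring by construction, the cause was not tested. The other 31 alternative values stayed within 1.5 times the main count or inside its counting interval. For the shares these intervals were wide, such as 14.7 to 94.7% for the cAMP counterpart share. Lying inside one therefore says little about stability. No cAMP peak of the 9 genes scored 100, so no share could be given there. No paired analysis was possible because each condition had 1 library, and for the same reason no replicate could be left out. Unknown depth limits every statement on a missing peak.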
